A study of Caenorhabditis elegans with 2 samples.

Results

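The regions described here are 443 of the 30000 candidate regions deposited for the pooled chromatin immunoprecipitation of HLH-13, a DNA-binding protein related to Ptf1a, in whole late embryos of the nematode Caenorhabditis elegans. They were chosen by their signal and their place. Of the 3000 pooled candidates of highest signal, which is the authors' measure of enrichment over a control library, they are those whose summit lay in an exon of a protein-coding gene. The summit also had to lie outside the window from 1000 bp upstream to 200 bp downstream of every protein-coding transcript start, and more than 100 bp from any tRNA, snoRNA, snRNA, miRNA or other ncRNA gene. They are called the strong exonic regions below. The same rules of place gave 6826 exonic candidates among the other 27000 regions, 559 intronic and 447 intergenic regions among the 3000 strongest, and 6498 intronic candidates among the others. The strain was OP744, with the transgene wgIs744, in which hlh-13 is fused to TY1, EGFP and 3xFLAG tags and which also carries unc-119(+), in worms with unc-119(tm4063), an allele that both replicates share. Embryos of both sexes were collected by egg bleaching and were 3.5 hours old, chromatin was sonicated to fragments of 200 to 800 bp, and an antibody against GFP was used. The 2 biological replicates formed 1 group and were set against 1 control library, so the comparisons below are between kinds of regions and between the replicates. Read depth was unknown, since region lists hold no read counts, and the sources used here do not give the scale of the signal. A whole embryo holds many cell types, and a signal averaged over them cannot be assigned to one. The tagged gene itself had 1 candidate, near its start (X, summit 4249432, rank 19688, signal 31.0), in the promoter window and therefore not among the exonic regions. Coordinates are 1-based on ce11 (WBcel235).

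HLH-13 belongs to the basic helix-loop-helix factors, which bind DNA as dimers at E-boxes, short sequences of the form CANNTG, and most known target sites of such factors lie in promoters, introns and intergenic enhancers. Exons are translated or carry untranslated ends of the mRNA, are richer in G+C than introns in this species, and can also hold regulatory sequence. The data below describe where in their genes these regions lay, how far the replicates shared them and what their sequence held.

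Sequences of 30 bases are shown for 8 strong exonic regions on which the account below turns. They come from the RefSeq copy of WBcel235 and are written in the direction of the gene, with the E-box nearest the summit in capitals where one lay within 50 bp and with the 30 bases around the summit where none did. The regions of dhc-4 (chrIII:10989860-10989889, plus strand), tos-1 (chrV:9343923-9343952, minus strand), pks-1 (chrX:5429539-5429568, plus strand) and cpl-1 (chrV:16593511-16593540, minus strand) were among the 5 of highest signal. Those of col-97 (chrIII:12993173-12993202, minus strand) and col-98 (chrIII:13019490-13019519, plus strand) show the G+C-rich coding sequence of cuticle collagens. That of nep-18 (chrII:2557866-2557895, minus strand) has its E-box at the summit, and that of hsp-1 (chrIV:17279775-17279804, plus strand) has the CACGTG form. The cpl-1 summit lay 2 bp from the edge of its exon, so the bases shown for cpl-1 run on past that edge. Since CANNTG is its own reverse complement, 1 search covers both strands.
dhc-4: aacaagttttggCAAATGaccgtcgtttgt
tos-1: agtttgtgtaagCATATGggggagagtcgg
pks-1: aagagactcatctcgtgtcccttcgccaat
cpl-1: ccaactttacaagaagggtatgttttgtgg
col-97: gcccaccaggagagccaggaccaccaggac
col-98: aggccaatgctcCACATGctgccgtccagg
nep-18: tgcggaggccttCAACTGccccaaaaattc
hsp-1: ttgcttccaaccCACGTGctcttcgtcgtc

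Exonic regions were scarce among the strongest. The authors' optimal set, the 423 best pooled regions, held 6 that were exonic by these rules (1.42%). The exonic share was 8.15% in the ranks after these up to 1000 and 19.5% after that up to rank 3000. Between ranks 3000 and 10000 it reached 23.8%, and in the ranks beyond 25.8%, where exons outside the promoter windows make up 21.4% of the bases of the genome by the same rules. Over all 3000 strong regions the share was 14.8%, against 25.3% of the other 27000. The shares of regions at non-coding genes ran the other way, with 56.5% of the 423 best regions and 4.70% of those beyond rank 10000. These shares are a description, since rank is what chose the members.

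**Figure D1:**
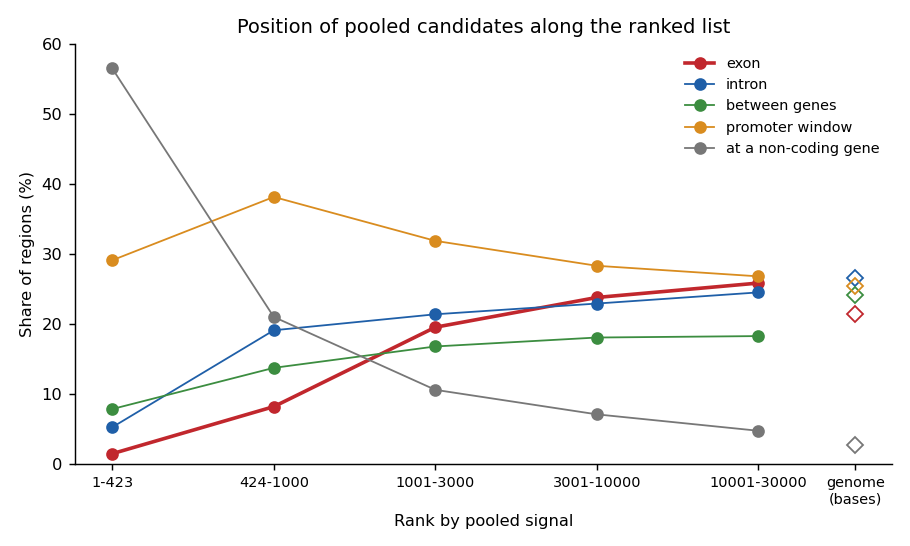
Share of pooled candidate regions (percent, vertical axis) by position class in 5 bins of rank by signal (horizontal axis), with diamonds for the share of genome bases in each class. The exonic share is 1.42% in the 423 best regions and 25.8% beyond rank 10000, while the share at non-coding genes is 56.5% in the 423 best.

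The members sat low within the strong set. Their signal ran from 52.3 to 131, with a median of 57.3 and quartiles of 54.4 and 61.9. In all, 302 of 443 were under 60 and 32 were over 70. The strong intronic regions had a median of 59.3 and a maximum of 219, and the strong intergenic ones a median of 59.6 and a maximum of 502. The members just inside the limit of rank 3000 lay in hgap-1, col-40 and let-756, all with a signal of 52.3. The exonic candidates just outside lay in Y71F9B.15, ipla-6 and W04A8.2 at ranks 3002, 3006 and 3010, also with 52.3, so the limit does not mark a step in the signal. The deposited −log10 q of the members ran from 0.531 to 2.03, with a median of 0.728. The median was 0.804 in the strong intronic regions and 0.148 over all pooled candidates. A −log10 q of at least 2 was deposited for 2 members, and for 251 of all pooled candidates. A q of 0.05 or less was deposited for 40 of the 443 members, so most members did not reach that level. The authors kept 6 of the 443 members in the optimal set (1.35%, 95% Wilson interval 0.622 to 2.92%), beside 1.41% of all pooled candidates. Since the optimal set consists of the pooled regions of highest signal, nothing about the members is read from that share.

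The 6 members of the optimal set lay in genes of unlike function. The highest signal, 131 at rank 158, was in exon 32 of 35 of dhc-4, which encodes a dynein heavy chain (III, 10989699 to 10990068, summit 10989884). Replicate 2 had a candidate there of signal 57.5 at rank 239, and replicate 1 had none within 100 bp. A stronger region lay close by: the summit was 199 bp from that of the pooled region of rank 14, with a signal of 319, and just past the limit of 100 bp from the snRNA gene R07E5.16. The next member, in exon 1 of tos-1 (V, summit 9343896, signal 106), a gene studied as a reporter of alternative splicing, lay 233 bp downstream of the start of that gene, just past the promoter window. It too had a candidate in replicate 2 (signal 60.3, rank 209) and none within 100 bp in replicate 1. At both of these loci the pooled value thus stood above all other members while replicate 1 listed no summit within 100 bp. A replicate 1 region with its summit farther off would not be counted.

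Both replicates listed a region at 3 of the other 4. In maph-1.1, which encodes a microtubule-associated protein of the MAP1 family (I, summit 14847336, signal 95.3), the replicate signals were 48.0 and 40.8, at ranks 395 and 814 in replicate 1 and replicate 2. In pks-1, a polyketide synthase gene (X, summit 5429554, signal 89.2), they were 50.8 and 40.9, at ranks 328 and 796. This summit, in exon 22 of 30, lay 15204 bp from the nearest protein-coding start, the longest such distance among the members. In the 3' UTR of T24D1.2 (I, summit 9953539, signal 86.02) the replicate signals were 38.8 and 38.1, at ranks 851 and 1142. In cpl-1, which encodes a cathepsin L protease (V, summit 16593526, signal 86.5), replicate 1 had a candidate of signal 43.2 at rank 558 and replicate 2 had none within 100 bp. So 3 of the 6 members in the optimal set had a candidate near the summit in 1 replicate only.

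The next members by signal ran from 79.8 to 71.0. The nuclear hormone receptor gene nhr-88 had a region in its 3' UTR (II, summit 2986257, signal 79.8) with a candidate in replicate 2 (rank 371) and none within 100 bp in replicate 1. The chemoreceptor gene srw-85 (V, summit 19430577, signal 78.7) had the reverse, with rank 311 in replicate 1 and no candidate within 100 bp in replicate 2. In osm-11, which encodes a secreted co-ligand of Notch receptors (X, summit 17420982, signal 76.9), the candidate was in replicate 2 (rank 1085). The cuticle collagen gene col-97 (III, summit 12993188, signal 76.1) ranked 15345 in replicate 1 and 296 in replicate 2, with signals of 19.2 and 53.6. The nearby collagen gene col-98 (III, summit 13019486, signal 74.8), was listed high in both, at ranks 655 and 1273 with signals of 41.4 and 37.2. The collagen pair therefore shared a pooled value and differed in how evenly the replicates made it up.

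Further down were xpg-1, an XPG-type DNA repair nuclease gene (signal 74.3), rol-1, named for the rolling movement of its mutants (73.8), cdk-12, a kinase gene of the transcription cycle (73.4), and fhod-1, a formin gene (73.3). The region in exon 13 of 13 of nep-18, a gene of the neprilysin family of membrane proteases (II, summit 2557881, signal 73.9), ranked 1018 in replicate 1 and 2349 in replicate 2, with signals of 37.3 and 32.9. The region in sulp-3, a gene of the sulfate permease family (X, summit 8404705, signal 72.1), was like that in dhc-4 in having a stronger neighbour at a non-coding gene. The pooled region of rank 30, with a signal of 259, had its summit 203 bp away, and a tRNA gene lay at 134 bp. Replicate 1 listed the sulp-3 region at rank 312 and replicate 2 had none within 100 bp. Of the 25 members of highest signal, 21 lay in coding sequence and 4 in a 3' UTR, and 13 had an E-box within 50 bp of the summit. The best 3000 of both replicates held 9 of the 25, namely those in maph-1.1, pks-1, T24D1.2, C50F2.4, col-98, nep-18, rol-1, fbxo-11.2 and mig-38. G+C content within 50 bp of these 25 summits ran from 33.7 to 65.3%, with a median of 49.5%.

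A pooled candidate of higher signal lay within 1000 bp of 20 of the 443 summits (4.51%, Wilson interval 2.94 to 6.87%). The same held for 144 of all 3000 strong regions, 4.83% of the strong intronic ones and 24.5% of all pooled candidates, so the members' share is near that of strong regions of other kinds. The stronger neighbour was at a non-coding gene in 6 cases, in dhc-4, sulp-3, hsp-1, F33G12.3, F52C9.5 and ifet-1. It was in a promoter window in 4 cases, exonic in 5, intronic in 4 and intergenic in 1. A non-coding gene of the excluded kinds lay within 500 bp of 30 members, and in 8 of them it was a tRNA, snoRNA or snRNA gene. The same counts for other kinds of region are not given here, so nothing about the members is read from them. Whether a strong neighbour adds to the signal of these members was not tested.

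How far the replicates shared the strong exonic regions was asked next. Every one of the 443 had a candidate summit within 100 bp in at least 1 replicate. There was one in replicate 1 for 375 (84.7%, Wilson interval 81.0 to 87.7%), in replicate 2 for 392 (88.5%, 85.2 to 91.1%) and in both for 324 (73.1%, 68.8 to 77.1%), which left 51 found in replicate 1 only and 68 in replicate 2 only. Of all 3000 strong regions 0.533% had no candidate within 100 bp in either replicate, as had 14.9% of all pooled candidates. Candidates in both were found for 76.3% of all 3000 strong regions, 72.6% of the strong intronic and 75.4% of the strong intergenic ones, and 24.2% of all pooled candidates. High rank in both was much rarer. Among the best 3000 regions of the replicate were 141 members in replicate 1 (31.8%) and 190 in replicate 2 (42.9%), and 138 members (31.2%) were in neither. Over all 3000 strong regions these shares were 48.4% in replicate 1 and 52.6% in replicate 2, and over all pooled candidates 8.65% and 8.98%. The best 3000 of both replicates held 26 members (5.87%, 4.04 to 8.46%), beside 2.21% of all pooled candidates, 13.2% of the strong intronic and 13.9% of the strong intergenic regions, and 22.03% of all 3000 strong regions. The pooled signal that chose the members comes from the reads of both replicates, so no test was made of these shares. None of the members was among the best 423 of both replicates. The same count for other kinds of region is not given here, so nothing about the members is read from it.

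The replicate values of the members leaned opposite ways. The signal in replicate 1 ran from 14.4 to 63.5 with a median of 27.3 over 375 members, and that in replicate 2 from 15.6 to 60.3 with a median of 30.9 over 392. Across the 324 members with a value in both, the Spearman correlation of the signals was −0.48 and the Pearson correlation −0.43, and without the 2 members of highest pooled signal these were −0.50 and −0.48. Strong intronic regions had −0.22 and 0.19 over 406, and strong intergenic regions −0.15 and 0.70 over 337. Across all 1538 exonic candidates with a value in both the correlations were 0.079 and 0.10. These values are across regions, which are not independent and share both libraries and the control. The strong regions were also chosen by a pooled signal made from both replicates, and most members lay close above its limit. A member with a low value in 1 replicate then tends to need a high value in the other. Such a choice can give a negative correlation by itself, so nothing about the members is read from its sign. Members could lack a high rank at the summit in either replicate. The region in the chromatin remodeller gene chd-7, with a pooled signal of 63.1, had no candidate summit within 100 bp in replicate 1 and rank 25933 in replicate 2.

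**Figure D2:**
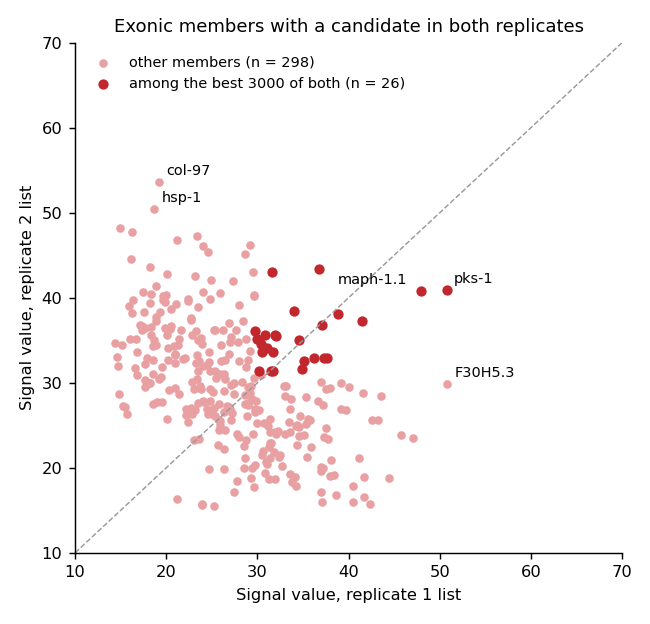
Signal of each strong exonic region in replicate 1 (horizontal axis) against replicate 2 (vertical axis), in the authors' units, for the 324 members with a candidate within 100 bp in both, with dark points for the 26 among the best 3000 of both and a dashed line of equal values. The points run along a falling band, with a Spearman correlation of −0.48, and pks-1 and maph-1.1 lie outside it with high values in both. The choice of members by a pooled signal of both replicates can give a falling band by itself.

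The 26 members in the best 3000 of both replicates span many kinds of gene. Besides the 9 named above they include nhr-80, a nuclear hormone receptor gene (III, summit 12991, signal 70.6), the collagen gene col-41 (X, summit 15175999, signal 69.8) and unc-60, which encodes the actin regulator cofilin (V, summit 1479208, signal 65.2). Genes of chromatin and transcription were jmjd-1.2, a histone demethylase gene (IV, summit 4664356, signal 68.1), mdt-26, for a Mediator subunit (II, summit 5662856, signal 67.9), and cbp-1, for the CBP acetyltransferase (III, summit 9767195, signal 67.1). Also among them were dcap-2, for an mRNA decapping enzyme (61.3), pgp-9, for an ABC transporter (62.3), and the homeobox gene ceh-14, of the LIM class, in its 3' UTR (58.2). In cbp-1 the ranks were 2428 in replicate 1 and 1961 in replicate 2, and in ceh-14 they were 2206 and 2997.

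Where the summits lay within exons was compared with the other exonic candidates. Coding sequence held 394 of the 443 summits (88.9%, Wilson interval 85.7 to 91.5%), against 6152 of the 6826 others (90.1%). The odds ratio was 0.881 (0.646 to 1.22 at 95% confidence; two-sided Fisher's exact test with Benjamini-Hochberg adjustment over 9 tests, p = 0.687). A 3' UTR held 42 members (9.48%) and a 5' UTR held 7, in ZK484.6, ZK930.6, C34C12.2, fbxl-1, lin-42, Y38H6C.8 and fbxa-139. The highest signals in a 3' UTR after T24D1.2 and nhr-88 were in C50F2.4 (74.9), cdk-12 (73.4) and skn-1, which encodes a stress and cell fate factor related to Nrf proteins (IV, summit 5651610, signal 70.2). The last exon of every transcript with an exon at the summit held 92 members (20.8%) and 1448 of the other exonic candidates (21.2%), for odds 0.973 times as high (0.760 to 1.24; adjusted exact p = 1.00). No difference in place between strong and weaker exonic regions was detected; the intervals above give the changes of odds that these numbers of regions allow.

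Sizes and positions within the gene were described without a test. The exon under the summit had a median length of 486 bp (quartiles 255 and 820) for the strong exonic regions and 394 bp (222 and 689) for the other exonic candidates. It was at least as long as the region, which is 370 bp in every member, in 277 of 443. A summit lay within 50 bp of an exon edge in 108 members. Gene lengths had medians of 4906 bp for members and 4347 bp for the others. Along the gene the median summit was 59.4% of the way from start to end for members and 59.8% for the others, while the strong intronic regions had 44.04%. With each gene cut into 3 equal parts, the part nearest its start held 24.6% of members and the part nearest its end 39.3%. For the strong intronic regions these shares were 34.7% and 25.8%. The median distance to the nearest protein-coding start was 1520 bp for members, and 72 members lay within 500 bp downstream of a start, just outside the excluded window. The nearest start was that of the gene itself for 342 members (77.2%).

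Chromosome X held 61 of the 443 members (13.8%, interval 10.9 to 17.3%) and 1059 of the other exonic candidates (15.5%), for odds 0.870 times as high (0.647 to 1.15; adjusted exact p = 0.687). Against the strong intronic regions, with 76 of 559 on X (13.6%), the odds ratio was 1.01 (0.693 to 1.48, adjusted exact p = 1.00). The other members were spread over the autosomes, with 81 on I, 86 on II, 68 on III, 66 on IV and 81 on V.

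The sequence around the summits was richer in G+C than that of weaker exonic candidates. Within 50 bp of the summit the strong exonic regions had a median G+C content of 47.5% (quartiles 42.6 and 52.5%), against 43.6% (38.6 and 49.5%) for the other exonic candidates, 44.6% for strong intronic and 45.5% for strong intergenic regions. Over 50% G+C was found in 168 members (37.9%), in 21.7% of the other exonic candidates and in 24.5% of the strong intronic regions. The same direction was seen outside exons: strong intronic regions had a median of 44.6% and other intronic candidates 38.6%, and all 3000 strong regions had 46.5% beside 41.6% over all pooled candidates. Read the other way, 3.93% of the exonic candidates under 35% G+C were members, 4.36% of those from 40 to 45%, 9.30% of those from 50 to 55% and 11.6% of those at 55% or more (74 of 636). With the same rule applied to each replicate alone, strong exonic regions had a median of 45.5% and the others 43.6% in replicate 1, and 47.5% and 43.6% in replicate 2. Across the 7269 exonic candidates the Spearman correlation of signal and G+C content was 0.14. It was 0.13 over the 6781 exonic candidates of replicate 1 and 0.14 over the 7719 of replicate 2. Within the members it was 0.075. These are descriptions across regions that share libraries and a control, and the part of G+C content in the signal was not tested.

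**Figure D3:**
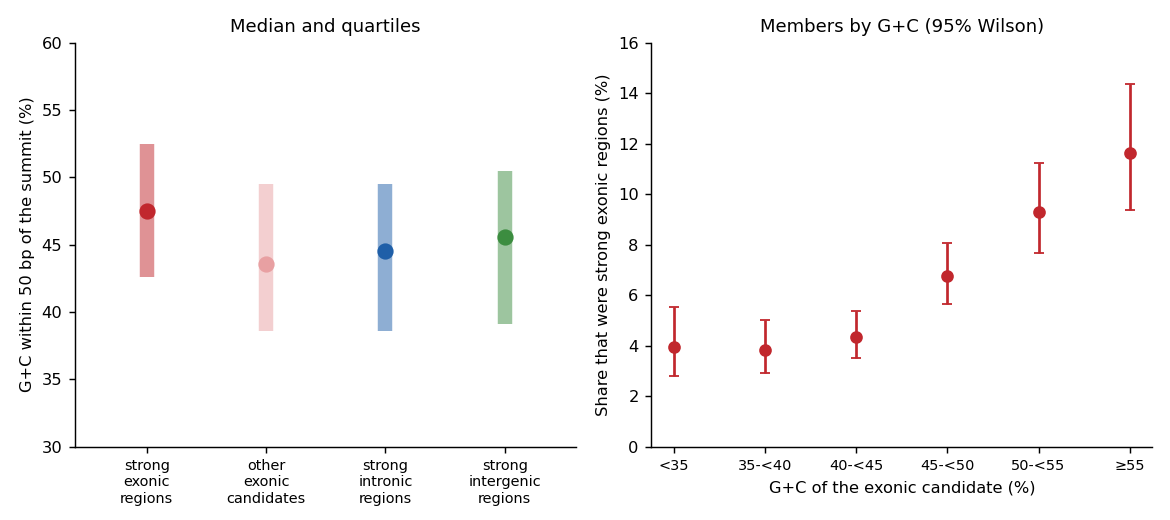
G+C content within 50 bp of the summit (percent) by kind of region, and the share of exonic candidates that are strong exonic regions (percent, with 95% Wilson intervals) by bin of G+C content. The median is 47.5% for the strong exonic regions and 43.6% for the other exonic candidates, and the share is 3.93% in the lowest bin and 11.6% in the highest.

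No difference in E-boxes was detected between strong and weaker exonic regions. Of the 443 members 184 had a CANNTG no more than 50 bp from the summit (41.5%, interval 37.0 to 46.2%), as had 2966 of the 6826 other exonic candidates (43.5%). The odds ratio was 0.925 (0.756 to 1.13; adjusted exact p = 0.687). The share in the strong intronic regions was lower, 146 of 559 (26.1%, 22.6 to 29.9%), with an odds ratio of 2.01 for the strong exonic regions (1.52 to 2.65; two-sided Fisher's exact test, adjusted p = 1.59e-06). Among weaker candidates the order was the same, with 43.5% of exonic and 29.3% of intronic regions. The higher share of E-boxes was thus seen in exonic regions at both levels of signal.

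The commonest forms in the members, read on either strand, were CAAATG in 39 (8.80%), CAAGTG in 29 (6.55%) and CAACTG in 28 (6.32%), with 11.1%, 5.90% and 7.98% in the other exonic candidates. CACGTG was in 23 members (5.19%, 3.48 to 7.67%) and in 3.34% of the other exonic candidates (2.94 to 3.79%), while CAGCTG was in 18 members (4.06%) and 4.16% of the other exonic candidates, and CACATG in 18 members (4.06%) and 4.18% of the others. CAGCTG and CAGATG are forms bound by many tissue-specific factors of the family, and CAGATG was in 25 members (5.64%) and in 7.03% of the other exonic candidates. The single forms were not tested. Simple repeats were less frequent in exons than between genes: GAGAGA, on either strand, was in 7.45% of the members, 5.87% of the other exonic candidates, 10.4% of the strong intronic and 17.9% of the strong intergenic regions. A run of 6 T, on either strand, was in 13.3% of members, 15.05% of the other exonic candidates and 26.8% of strong intronic regions.

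The promoter elements of tRNA genes, the A box and the B box, were looked for within 100 bp of the summit on both strands. No member held both (0 of 443, upper Wilson limit 0.860%), and 5 of the other exonic candidates did (0.0732%, adjusted exact p = 1.00). The A box alone is a short and loose motif and was present in 94 members (21.2%, Wilson interval 17.7 to 25.3%). An A box was in 15.95% of the other exonic candidates (15.1 to 16.8%), 14.5% of the strong intronic and 13.9% of the strong intergenic regions. Over all 3000 strong regions the share was 22.1%, near that of the members. These shares of the A box were not tested. No member lay in an annotated piRNA gene, pseudogene, lincRNA or antisense RNA gene. In the same order 2, 6, 0 and 9 of the 6826 other exonic candidates did, so nothing about the members is read from their absence. Nearly all members were on unique sequence: in 438 of 443 (98.9%) each 32-mer near the summit, within 50 bp on either side, had no second copy in the genome. The share was 6634 of 6826 in the other exonic candidates (97.2%), for odds 2.54 times as high in the members (1.06 to 7.94; adjusted exact p = 0.0994). In the strong intronic regions it was 478 of 559 (85.5%), for odds 14.8 times as high (6.01 to 47.3; adjusted exact p = 2.06e-15), a ratio that was 6.01 in the list of replicate 1 alone and 8.07 in that of replicate 2 alone. Among weaker candidates the order was the same, with 97.2% of exonic and 84.3% of intronic regions. The higher share of unique sequence was thus seen in exonic regions at both levels of signal. Against the other exonic candidates the odds ratio was 1.17 in the list of replicate 1 alone, 1.53 in that of replicate 2 alone and 1.098 with the 3000 best exonic regions, and it passed in 1 alternative, with 1 region per gene (3.46, adjusted exact p = 0.0205). The exceptions among the members were in puf-3, Y69H2.10, R02D3.8 and F21D9.2 and the second region of maph-1.1, with 55.7% of 32-mers unique in F21D9.2.

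**Figure D4:**
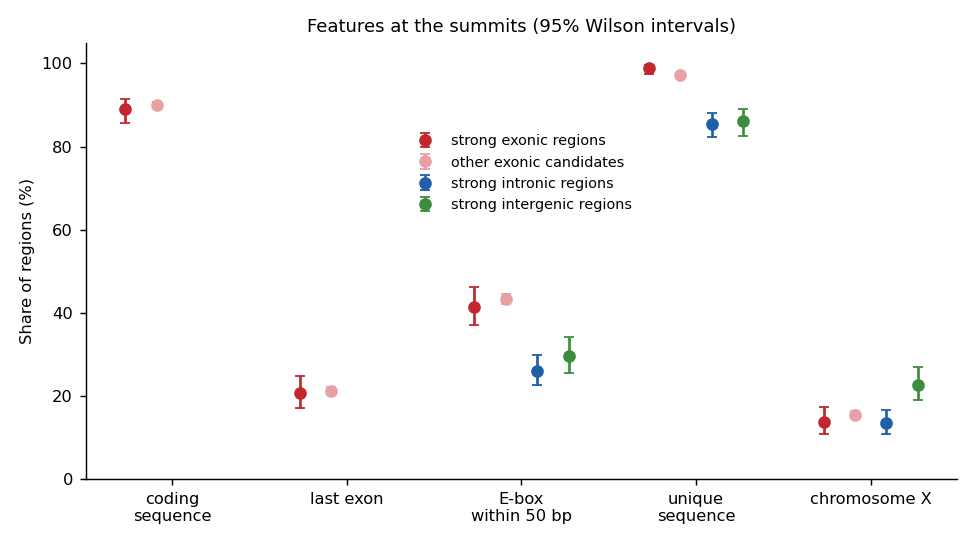
Share of regions (percent, with 95% Wilson intervals) with each feature, for the strong exonic regions and the kinds of region they were compared with. E-boxes are at 41.5% of the strong exonic regions, 43.5% of the other exonic candidates and 26.1% of the strong intronic regions, and unique sequence at 98.9%, 97.2% and 85.5%.

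The 443 regions lay in 428 genes, and 4 of them lay in an exon of 2 overlapping genes. In 14 genes there were 2 members, and ketn-1 and hsp-1 had more. Kettin, encoded by ketn-1 (V, 2781939 to 2807860, minus strand), is a large immunoglobulin-repeat protein of muscle. Of its 12 exonic candidates 4 were members, at 1779, 16519, 20066 and 23332 bp from the start of the gene, with signals of 71.5, 58.3, 65.7 and 54.7. The other 8 had signals from 30.3 to 38.4, so no exonic candidate of the gene lay between 38.4 and 54.7. In replicate 1 the 4 ranked 546, 873, 3010 and 7763, and in replicate 2 they ranked 4600, 24791, 863 and 3859. None was among the best 3000 of both.

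The gene hsp-1 encodes the constitutive HSC70 chaperone, one of the most abundant cytosolic chaperones (IV, 17278959 to 17281330, plus strand). All 3 of its exonic candidates were members, at 557, 792 and 2178 bp from the start, with signals of 64.01, 61.8 and 69.0 and G+C contents of 57.4, 53.5 and 62.4%. The replicates ranked them 3939, 5915 and 16709 in replicate 1 and 2479, 1470 and 359 in replicate 2. All 3 thus ranked higher in replicate 2. Every member is 370 bp wide, so the regions at 557 and 792 bp overlapped and are not separate stretches of sequence. As given above, an hsp-1 member also had a stronger neighbour at a non-coding gene.

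**Figure D5:**
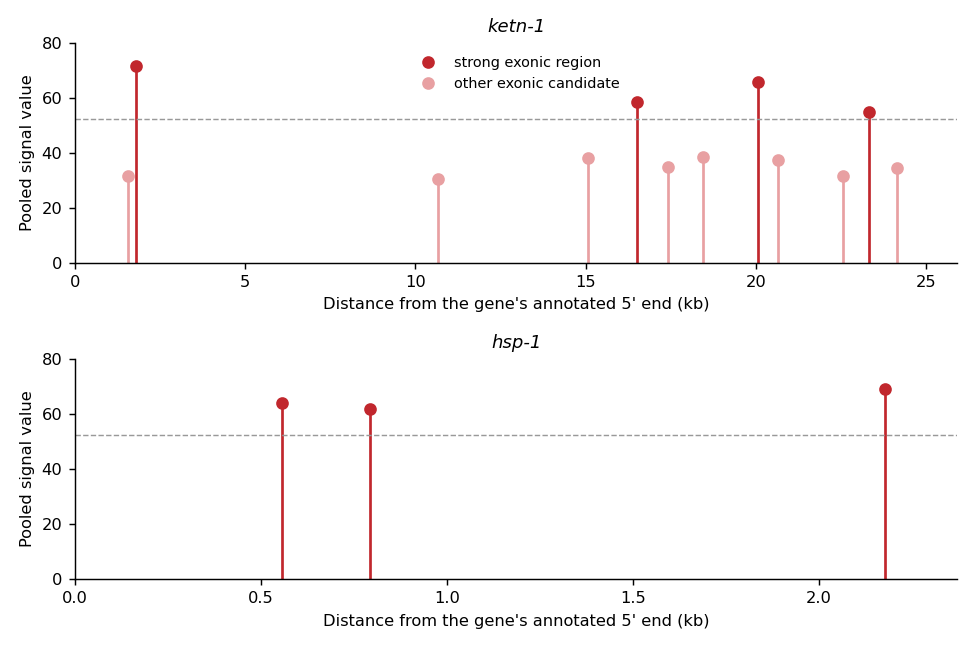
Signal (authors' units, vertical axis) of every exonic candidate of ketn-1 and hsp-1 against distance from the start of the gene (kb, horizontal axis), with members marked and a dashed line at 52.3, the lowest signal of a member. Of the ketn-1 candidates 4 of 12 lie above the line, and of the hsp-1 candidates 3 of 3. The hsp-1 regions at 557 and 792 bp overlap.

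The genes with 2 members included cbp-1 (signals 67.1 and 58.9), chd-3, for a chromatin remodeller of the Mi-2 type (54.9 and 53.3), and tlk-1, for a Tousled-like kinase (62.5 and 60.9). They also included nos-3, for a Nanos-family regulator of germ cells (56.4 and 55.9), egl-8, for a phospholipase C (59.4 and 56.9), and ain-1, for a GW182-type protein of miRNA silencing (65.6 and 62.6). In ain-1 the summits were at X 16614098 and 16614315. The first had a candidate in replicate 2 only and the second in replicate 1 only. The count of members found in both replicates depends on the distance allowed, and was 230 within 50 bp, 324 within 100 bp and 398 within 200 bp.

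Gene lists were read by counts alone, beside the value over all genes, which was 428 with a member of 5122 with any exonic candidate (8.36%). Several lists of structural and regulatory genes had shares above it. Of the genes of chromatin and the transcription machinery 13 of 61 had a member (21.3%, interval 12.9 to 33.1%), with jmjd-1.2 (68.1), mdt-26 (67.9) and cbp-1 (67.1) highest. Of the axon guidance and adhesion genes 6 of 28 had one (21.4%, 10.2 to 39.5%), led by the cadherin gene cdh-12 (III, summit 1173095, signal 70.3), the plexin gene plx-1 (60.3) and the Robo receptor gene sax-3 (60.02). Spectrin, plakin and attachment genes had 4 of 19, with unc-70, for beta-spectrin (63.2), vab-10 (61.4) and spc-1, for alpha-spectrin (58.9). By regions rather than genes these lists were closer to the 6.09% of all exonic candidates that were members, with 15 of 117 (12.8%), 6 of 64 (9.38%) and 4 of 87 (4.60%).

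Cuticle collagen genes, which are short and encode repeats rich in glycine and proline, had a member in 12 of 84 (14.3%, 8.37 to 23.3%), with col-97, col-98 and col-41 highest among those listed. Their exonic candidates had a median G+C content of 58.4%, against 44.6% over all exonic candidates. By regions the collagens had 12 of 110 (10.9%). The collagen list was made by gene name and did not include rol-1 (signal 73.8). The rol-1 sequence near the summit, with 61.4% G+C, can also be read as a glycine and proline repeat. Muscle genes had 4 of 30 and, by regions, 7 of 116 (6.03%), below the share of all exonic candidates, with ketn-1, the dystrophin gene dys-1 (I, summit 11543082, signal 68.6), unc-60 and unc-22. Ribosomal protein genes had 3 of 9, in rpl-3 (III, summit 3869430, signal 67.7), rpl-14 (54.8) and rpl-4 (54.03). Chaperone genes had 3 of 21, with hsp-1, dnj-5 (58.4) and dnj-14 (53.2), and translation factor genes 2 of 17, with eef-1B.2 (68.6) and eef-1A.2 (53.5). Basement membrane and matrix genes had 2 of 14 and, by regions, 2 of 34 (5.88%), with the type IV collagen gene let-2 (60.6) and the adhesion gene sax-7 (54.5), and cuticulin genes 3 of 17, led by egg-6 (62.2). Germline and early embryo genes had 4 of 22, led by skn-1 (70.2) and puf-3 (68.1).

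For transcription factors and neuronal or developmental signalling the counts were as follows. Nuclear hormone receptor genes had 7 of 61 (11.5%), homeobox genes 3 of 28, in ceh-81 (58.6), ceh-14 (58.2) and zag-1 (57.3), and basic helix-loop-helix genes 1 of 11, in hlh-30, the gene of a TFEB-like regulator of autophagy (53.1). Neuronal signalling genes had 2 of 29, in the potassium channel gene slo-1 (57.3) and the liprin gene syd-2 (52.7), and Notch and Wnt genes 2 of 16, in the Frizzled gene cfz-2 (57.4) and the Notch ligand gene apx-1 (55.9). Shares below the overall value were found in some large families. Chemoreceptor genes had a member in 6 of 158 (3.80%, 1.75 to 8.04%), led by srw-85 (78.7), srh-287 (63.5) and sri-1 (63.2), and F-box, MATH and BTB genes in 1 of 52 (1.92%), fbxa-139 (52.8). The median G+C content of their exonic candidates was 39.6% and 38.6%. Among other lists the median was 40.6% for nuclear hormone receptor genes and 43.6% for germline and early embryo genes, whose shares with a member were 11.5% and 18.2%. It was 47.5% for actin and tubulin genes, which had no member. C-type lectin genes had 5 of 65 (7.69%), led by clec-112 (67.0). None of 8 actin and tubulin genes and none of 3 vitellogenin and major sperm protein genes had a member, and none of 51 histone genes had an exonic candidate at all. The lists were not tested, and the parts of the number of candidates per gene and of G+C content in these shares were not tested.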

How the data were processed

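Candidate regions from anti-GFP chromatin immunoprecipitation of 2 biological replicates were used. Per the submitters' file manifests, each replicate was called against 1 control library, the pooled list came from both replicates, and the optimal set of 423 was derived from these lists. For each region the authors deposited a signal, their measure of enrichment over the control, on a scale that no source used here gives, and −log10 q-values, used here only to describe. The aligner used and the peak caller are steps not given in the sources used here. Per the labels, the assembly is ce11.

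Summits were placed on Ensembl release 115 genes (WBcel235). Motifs and G+C content were read within 50 bp of the summit, the A and B boxes within 100 bp. Two-sided Fisher's exact tests compared shares, giving conditional odds ratios with 95% intervals and p-values adjusted by Benjamini-Hochberg over 9 tests at 0.05. Regions are not replicates: these tests and the 95% Wilson intervals describe lists of regions, and the spread between preparations of embryos is outside them. Depth was unknown. Signal, G+C content and the 22 gene lists were described without a test. The members, lists and tests were chosen with earlier results of these data known. Genes named are the 25 members of highest signal, up to 3 members per list, genes with several members and those of a count of 5 or fewer; the sequence of hsp-1 and further names in the counts of replicates, UTRs and neighbours were chosen after their values were seen. On simulated regions with an E-box share planted lower in members than in the others, 2 of 2 E-box tests and 0 of 7 others were called. None was called with equal shares. The planted gap was wider than that found against the other exonic candidates. The tools were scipy 1.17.1, statsmodels 0.14.6, pandas 2.3.3 and numpy 2.4.6 in Python 3.11.15, with matplotlib 3.10.9 for plots. Alternatives were other numbers of best regions, each replicate alone, other promoter and non-coding windows, other motif windows, 1 region per gene and the optimal set only.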

Additional observations from a re-analysis of the deposited data

How the results depend on the processing

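Of 100 odds ratios recomputed under alternatives, 80 kept their direction and their side of the threshold. The members, 1.48% of the 30000 candidates, were 0.430% with the 1500 best regions, 3.86% with the 6000 best and 10% when the 3000 best were taken among exonic candidates only. Each replicate alone gave 452 and 553 members (1.51 and 1.84%). E-boxes against strong intronic regions had an odds ratio of 1.62 to 2.22 elsewhere, and of 3.23 without a call in the optimal set only, where 6 members were left (adjusted exact p = 1.00). Unique sequence against the other exonic candidates passed with 1 region per gene (odds ratio 3.46, adjusted exact p = 0.0205), and was 1.17 and 1.53 in replicate 1 and replicate 2 alone and 1.098 with the 3000 best exonic. Odds ratios that missed the threshold in every setting and turned round were those of coding sequence (1.19 with the 1500 best regions, 1.06 with the 3000 best exonic), of the last exon (1.03 with the 3000 best exonic, 1.08 to 1.16 in a replicate alone), of E-boxes against other exonic candidates (1.00 with the 1500 best, 1.05 with the 3000 best exonic, 1.30 in the optimal set) and of both boxes (1.32 with the 6000 best, 5.70 with the 3000 best exonic). For chromosome X they were, against other exonic candidates, 1.06 with the 6000 best, 1.09 in the optimal set and 1.00 in replicate 2 alone (0.946, not turned, in replicate 1), and, against strong intronic regions, 0.896 with the 1500 best, 0.990 with a promoter window of 500 bp, 0.916 with 500 bp to non-coding genes, 0.963 with 1 region per gene and 0.689 in the optimal set. The cause was not tested. In the optimal set all 6 members were on unique sequence, so that odds ratio had no finite value. No paired analysis was possible because the series has 1 group. Depth is unknown, so intervals cover the number of regions only.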
